A study of Mus musculus with 4 samples.

Results

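Solute carriers are the largest superfamily of membrane transporters, and their genes are named Slc with a family number. The set described here is the solute carrier genes that were expressed in mouse embryonic stem cells with and without Myh9. Members were the rows of the deposited table whose name starts with Slc and a number and whose mean value over all 4 libraries was at least 2, leaving out 10 genes by name. This gave 156 genes of 50600 rows. Of 379 Slc rows, 165 were listed at 0 in every library, 50 lay above 0 with a mean under 2, and 164 reached the minimum, of which 8 were among those left out. The members were thus chosen by the deposited values themselves, through the mean over both groups, and those levels are given as a description only.

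Solute carriers move amino acids, sugars, ions, metals, nucleosides, vitamins and lipids down or against their gradients, across the plasma membrane or into organelles. The family of mitochondrial carriers sits in the inner mitochondrial membrane and exchanges nucleotides, organic acids, amino acids and cofactors between the matrix and the cytosol. Dividing stem cells in naive culture draw on amino acid import for growth, on mitochondrial exchange for energy, and on zinc, iron and copper import for their enzymes.

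All 4 libraries came from OG2ES, a mouse embryonic stem cell line that the labels trace to the inner cell mass, grown with no special treatment in mouse ES cell medium with 2i, inhibitors that keep ES cells naive. There were 2 libraries of wild-type genotype (WT 1 and WT 2) and 2 of Myh9 KO genotype (Myh9 KO 1 and Myh9 KO 2), so n = 2 libraries per group throughout. The labels name neither the number of KO clones nor separate cultures, so a difference particular to the KO line cannot be told apart from one due to the loss of Myh9, and p-values measure only spread among the libraries at hand, perhaps technical. The series concerns colony shape and pluripotency without Myh9, which encodes a heavy chain of the non-muscle motor myosin IIA.

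Each library had whole-number values that summed to between 992098 and 992317, and 11653 to 11947 genes lay above 0. Myh9 had values of 83 and 100 in WT and 9 in each Myh9 KO library (limma, adjusted p = 0.00675, for a log2 difference of -3.20 with an SE of 0.12). The 7 ES cell markers checked, Pou5f1, Sox2, Nanog, Esrrb, Zfp42, Klf4 and Tfcp2l1, had values of 51 to 3189. Their sum was 4593 and 4756 in WT, then 4689 and 4746. Pou5f1, at 3045 to 3189, was the largest part of that sum, which hides opposite moves. Sox2 went from 177 and 183 to 126 and 121, and Zfp42 from 140 and 142 to 210 and 181. Of 8 feeder fibroblast markers 6 were listed at 0 in every library, with a summed value of 4 in each WT library and 5 to 7 in Myh9 KO. Of 6 endoderm markers 3 were at 0, with a summed value of 2 to 4 in WT and 8 in Myh9 KO. The 6 trophoblast markers (3 at 0) summed to 22 and 23 and then 25 and 27, the 3 mesoderm markers (2 at 0) to 1 and then 2 to 3, and the 4 neural markers (1 at 0) to 106 and 108 and then 90 and 94. Tubb3, at 100 and 101 and then 89 and 85, was the largest part of the neural sum, and Sox1 was at 4 in every library. The part of these markers in the results below was not tested.

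Of the 156 members, 14 rose and 12 fell in Myh9 KO cells, and 130 were not called. The words rose and fell are kept for genes whose Benjamini-Hochberg adjusted p, over all 11231 genes tested, was under 0.05 in both of 2 limma fits. The first was made on log2(value + 1). The second was made with a random decimal added to each value, because whole numbers hide the spread between equal replicates. The members that rose were 8.97% of the set, against 5.12% of all genes tested and 5.60% of tested genes with a mean of at least 2. Those that fell were 7.69%, against 5.80% and 6.0%. The groups did not overlap in 47 members that lay above WT and 46 that lay below, or 30.1% and 29.5%, against 26.2% and 27.3% of all genes tested. The median log2 fold change was 0 for the members and 0 for all genes tested. Rises and falls were thus close in number. Over all genes tested the split depended on scaling, with 575 higher and 651 lower as deposited and 1125 and 813 after centring each library on its median, and for the members it was then 19 and 16.

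Most changes were small. Rises ran from 1.27-fold to 3.12-fold and falls went to between 0.805 and 0.365 of WT, on the scale of value + 1, which understates the change of low genes. The fold was at least 2 for 3 rises, those of Slc41a3, Slc11a1 and Slc9a5. It was at most 0.5 for 2 falls, those of Slc27a2 and Slc5a11. Slc11a1 and Slc9a5 reached the minimum mean only through their Myh9 KO values, and Slc27a2 only through its WT values. Of the 130 members not called, 72 had a log2 fold change within 0.2 of 0, and 9 members had exactly 0.

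**Figure D1:**
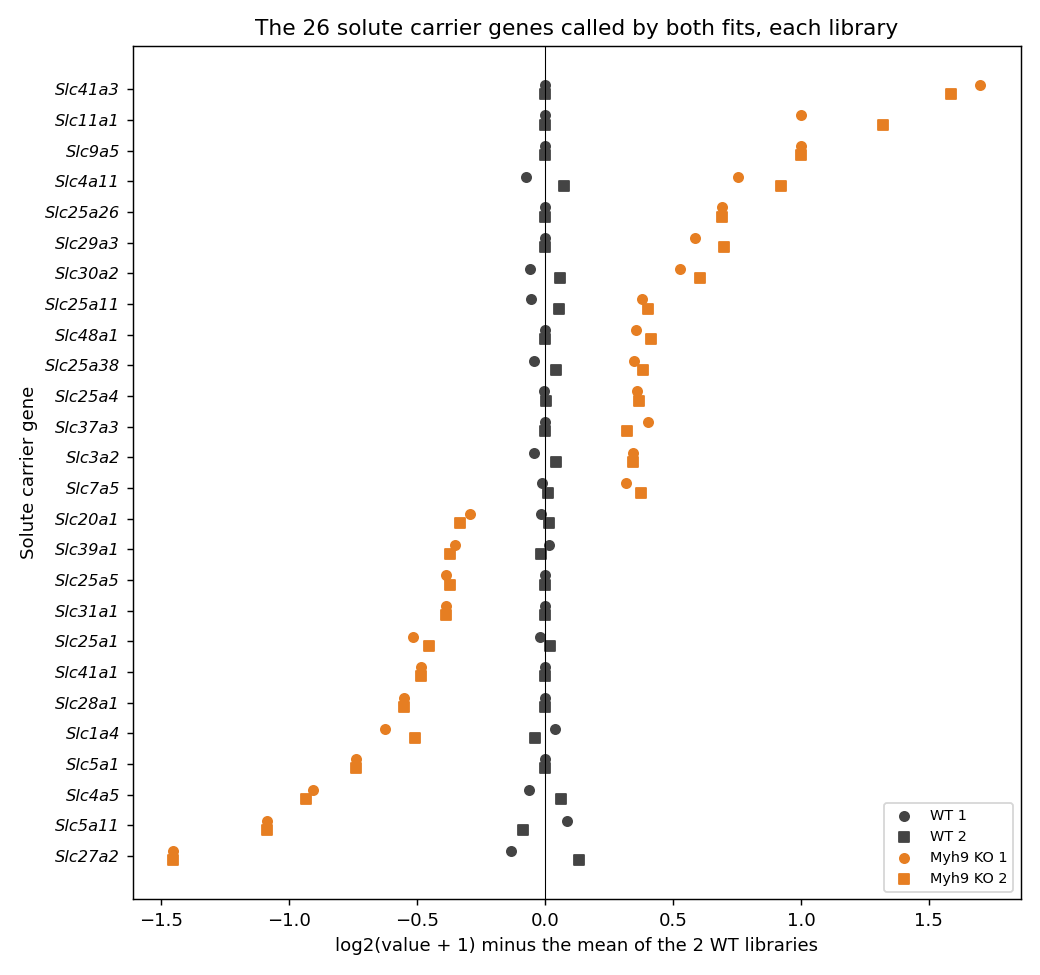
The 26 solute carrier genes called by both fits, with a point for each library: the horizontal axis gives log2(value + 1) minus the mean of the 2 WT libraries, grey for WT, orange for Myh9 KO, circles for replicate 1 and squares for replicate 2. In none of the 26 genes do the groups overlap, and the KO points run from Slc27a2 (log2 fold change -1.45) to Slc41a3 (1.64).

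The number of calls depends on having both libraries of each group. The counts were 4 higher and 4 lower without WT 1, 3 and 4 without WT 2, 6 and 4 without Myh9 KO 1, and 4 and 4 without Myh9 KO 2. Slc25a4, Slc25a5 and Slc25a26, all mitochondrial carriers, were the 3 members called with any library left out, and 12 of the 26 lost their call whichever library was left out. No called member changed direction. In a limma fit with no variance trend, where variance is not tied to the level of a gene, 11 of the 26 calls were lost. Those of Slc25a4, Slc25a5, Slc7a5 and Slc3a2 were among them. Taken by itself, the first fit gave 17 members higher and 18 lower, against 7.17% and 7.96% of all genes tested. The second fit by itself gave 22 and 20, against 11% and 11.9%. Of these members, 8 higher and 8 lower passed the second fit and missed the first. In what follows, a gene said to be higher or lower with random decimals alone passed the second fit and missed the first.

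The median log2 fold change of the mitochondrial carriers, 31 genes of the Slc25 family, was 0.07 (17 positive and 11 negative). It ran from 0.0 to 0.1175 over the alternative settings and was 0.0111 without chromosomes 6 and 8. There were 4 rises and 2 falls, or 12.9% and 6.45%, against 5.12% and 5.80% of all genes tested. For 3 of these 6 genes the bases before the RefSeq transcription start (GRCm38.p6), up to 250 and leaving out any in an annotated exon of GENCODE M21, are shown, so that the upstream sequence of carriers that moved in opposite directions can be read side by side. Slc25a1 and Slc25a5 fell and Slc25a38 rose, and the last 8 bases before the start of Slc25a38 lie in an exon and are left out. Each is written 5' to 3' on the strand of the gene, and capitals mark matches on either strand to the GC box GGGCGG, to CCAAT or to the E-box CACGTG.
Slc25a1, chr16:17928220-17928469, minus strand: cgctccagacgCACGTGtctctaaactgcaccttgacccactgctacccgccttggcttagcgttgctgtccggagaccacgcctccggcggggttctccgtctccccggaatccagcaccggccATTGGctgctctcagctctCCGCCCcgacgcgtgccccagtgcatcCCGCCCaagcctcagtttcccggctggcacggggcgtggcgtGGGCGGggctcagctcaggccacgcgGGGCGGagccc
Slc25a5, chrX:36795347-36795596, plus strand: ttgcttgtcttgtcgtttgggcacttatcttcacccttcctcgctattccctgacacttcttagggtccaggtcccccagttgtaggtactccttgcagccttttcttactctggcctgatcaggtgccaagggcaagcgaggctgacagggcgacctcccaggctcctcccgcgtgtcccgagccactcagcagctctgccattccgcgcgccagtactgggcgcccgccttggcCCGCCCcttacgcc
Slc25a38, chr9:120110132-120110373, plus strand: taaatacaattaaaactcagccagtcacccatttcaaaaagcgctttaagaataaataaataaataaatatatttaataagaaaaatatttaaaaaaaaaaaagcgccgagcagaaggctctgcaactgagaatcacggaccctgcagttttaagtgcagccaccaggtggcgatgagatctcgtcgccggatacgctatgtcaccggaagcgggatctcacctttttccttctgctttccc

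The GC box was found 4 times before Slc25a1 and once before Slc25a5. CCAAT and the E-box were each found once before Slc25a1, and before neither of the others. The window of Slc25a38 held none of these letters, and TATAA was in none of the 3. Of the 156 members, 119 had an entry in the RefSeq promoter table. Over the full 250 bases, which in some genes include exon sequence, a GC box lay in the window of 72.3% of these genes, against 35.4% of all 27025 genes of the table, CCAAT in 37.8% against 37.5%, and an E-box in 18.5% against 6.86%. TATAA was rarer, in 12.6% against 25.8%. Among called members with an entry, 6 of 10 that rose and 10 of 12 that fell had a GC box, and 2 of 10 and 3 of 12 an E-box. The SREBP motif TCACNCCAC was in 3 of the 119 and the palindromic NRF1 motif in 1, with none of the called members among them. The table of all genes includes many that were not expressed here, and a match describes letters only.

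The pair of ADP/ATP carriers, which export ATP from the matrix in exchange for ADP, moved in opposite directions. Slc25a5, the form abundant in dividing cells (mm10 chromosome X, 36795651 to 36798807), had a value of 732 in each WT library and 560 and 565 in Myh9 KO (limma, adjusted p = 0.00393, for a log2 difference of -0.38 with an SE of 0.01). Slc25a4, the heart and muscle form (chromosome 8, 46206797 to 46211284), went from 128 and 129 to 165 and 166 (adjusted p = 0.00511, for a log2 difference of 0.36 with an SE of 0.01). The replicates of both genes differed by far less than the groups. With its WT mean set to 1, the ratio of Slc25a5 to Slc25a4, in which gene length cancels, was 1.0 and 0.996 in WT, then 0.596 and 0.597. Of the 50-base words of the Slc25a5 transcripts, 33.8% occur in other genes, its processed copies among them, so its single-gene value is uncertain, while Slc25a4 shares 0%.

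**Figure D2:**
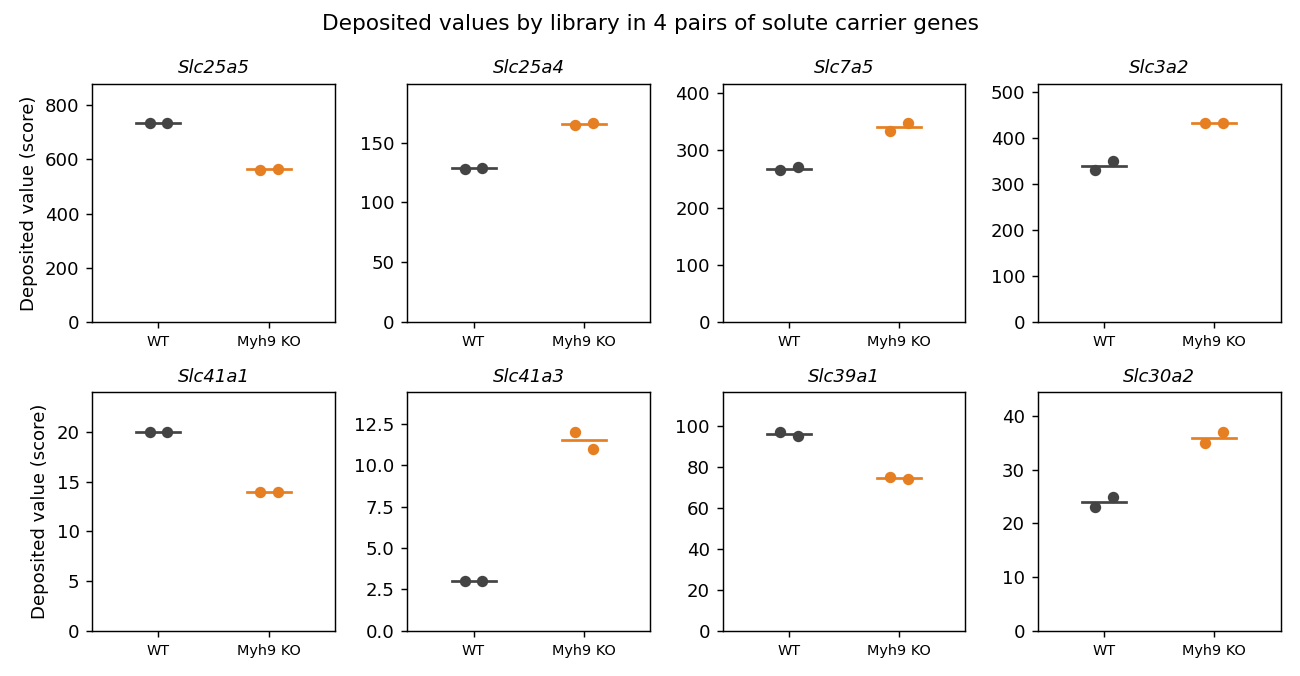
Deposited values (score, vertical axis from 0, a scale of its own for each gene) of 8 solute carrier genes in WT (grey) and Myh9 KO (orange), a point per library and a bar at the group mean. Slc25a5, Slc41a1 and Slc39a1 are lower in Myh9 KO and Slc25a4, Slc41a3 and Slc30a2 higher, while the partners Slc7a5 and Slc3a2 are both higher.

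Of the organic acid carriers, Slc25a1, which exports citrate to the cytosol for lipid synthesis, fell from 153 and 157 to 108 and 113 (limma, adjusted p = 0.02, for a log2 difference of -0.48 with an SE of 0.03). Slc25a11, the oxoglutarate carrier of the malate-aspartate shuttle, rose from 87 and 94 to 118 and 120 (adjusted p = 0.0491, for a log2 difference of 0.39 with an SE of 0.05). This call lies just under the threshold. It was lost with no filter on low values, with no variance trend and without the genes of chromosomes 6 and 8. Slc25a11 also overlaps Rnf167 on the opposite strand, whose values were 65 and 65 and then 69 and 72. Slc25a10, the dicarboxylate carrier, was at 32 in each WT library and at 37 and 39 in Myh9 KO, and was not called.

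Of the carriers of amino acids and cofactors, Slc25a26, which imports S-adenosylmethionine, rose from 12 in each WT library to 20 in each Myh9 KO library (limma, adjusted p = 0.00406, or 0.00383 with random decimals, for a log2 difference of 0.69). Slc25a38, the glycine importer that feeds haem synthesis, rose from 31 and 33 to 41 and 42 (adjusted p = 0.0436, for a log2 difference of 0.37 with an SE of 0.04). Both lie above every WT value in both KO libraries, as do all members that rose and 26.2% of all genes tested. The call of Slc25a38 was lost with no variance trend. Slc25a13, the aspartate-glutamate carrier citrin, had values of 41 and 45 and then 60 and 54 and passed with random decimals alone (adjusted p = 0.0126). Slc25a16 was lower with random decimals alone (7 and 9, then 4 and 5). The carrier with the highest mean value, the phosphate carrier Slc25a3, had 744 and 739 and then 714 and 732 (95% confidence interval of the fold, 0.934 to 1.02). Slc25a39, the mitochondrial glutathione importer, had 423 and 414 and then 438 and 469 (fold interval 0.969 to 1.21).

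Amino acid and peptide transporters (22 genes) gave 2 rises and 1 fall (9.09% and 4.55%, against 5.12% and 5.80% of all genes tested). Their median log2 fold change was -0.05, and ran from -0.1213 to 0.0 over the alternative settings. The rises were of both chains of a single transporter. Slc7a5, the light chain LAT1, which imports leucine and other large neutral amino acids (chromosome 8, 121881150 to 121907694), rose from 265 and 270 to 333 and 347 (limma, adjusted p = 0.027, for a log2 difference of 0.34 with an SE of 0.03). Slc3a2, the heavy chain CD98 that carries LAT1 to the membrane (chromosome 19, 8706882 to 8723369), rose from 330 and 350 to 432 and 432 (adjusted p = 0.0388, for a log2 difference of 0.35 with an SE of 0.04). The chains rose by the same 1.27-fold, and the ratio of Slc7a5 to Slc3a2 lay between 0.979 and 1.02 of its WT mean in all 4 libraries.

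The other amino acid transporters gave 1 fall and no further rise. Slc1a4, the neutral amino acid transporter ASCT1, fell from 18 and 17 to 11 and 12 (limma, adjusted p = 0.041, for a log2 difference of -0.57 with an SE of 0.06). Its relative Slc1a5, the glutamine transporter ASCT2, had 82 and 85 and then 72 and 75 (fold interval 0.809 to 0.961, adjusted p = 0.091) and was called by neither fit. Of the 5 Slc7 transporters only Slc7a5 rose, and with random decimals alone Slc7a3, a cationic amino acid transporter (109 and 109, then 82 and 73), was lower and Slc7a6 (31 and 29, then 36 and 38) higher. Slc7a1, the main arginine and lysine importer, had 46 and 50 and then 44 and 48 (not called). Of the 5 Slc38 members, sodium-coupled carriers of glutamine and other neutral amino acids, none was called by both limma fits (3 were lower at an unadjusted p under 0.05), 4 had a negative log2 fold change, and Slc38a6 (26 and 28, then 17 and 14) was lower with random decimals alone. The taurine transporter Slc6a6 (56 and 63, then 87 and 92) was higher with random decimals alone (adjusted p = 0.00145).

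The amino acid transporters known as targets of ATF4, the transcription factor of the amino acid response, were listed as a group of 10. Of 9 tested, Slc7a5 and Slc3a2 rose and Slc1a4 fell, where 5.12% of all genes tested rose and 5.80% fell. The other 6 were not called, so the list did not move 1 way. The remaining gene, Slc7a11, the cystine importer, was listed at 0 in every library. Mki67, Rock1 and Rock2 were also listed at 0 throughout, so a listed 0 need not mean that the transcript was absent.

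**Figure D3:**
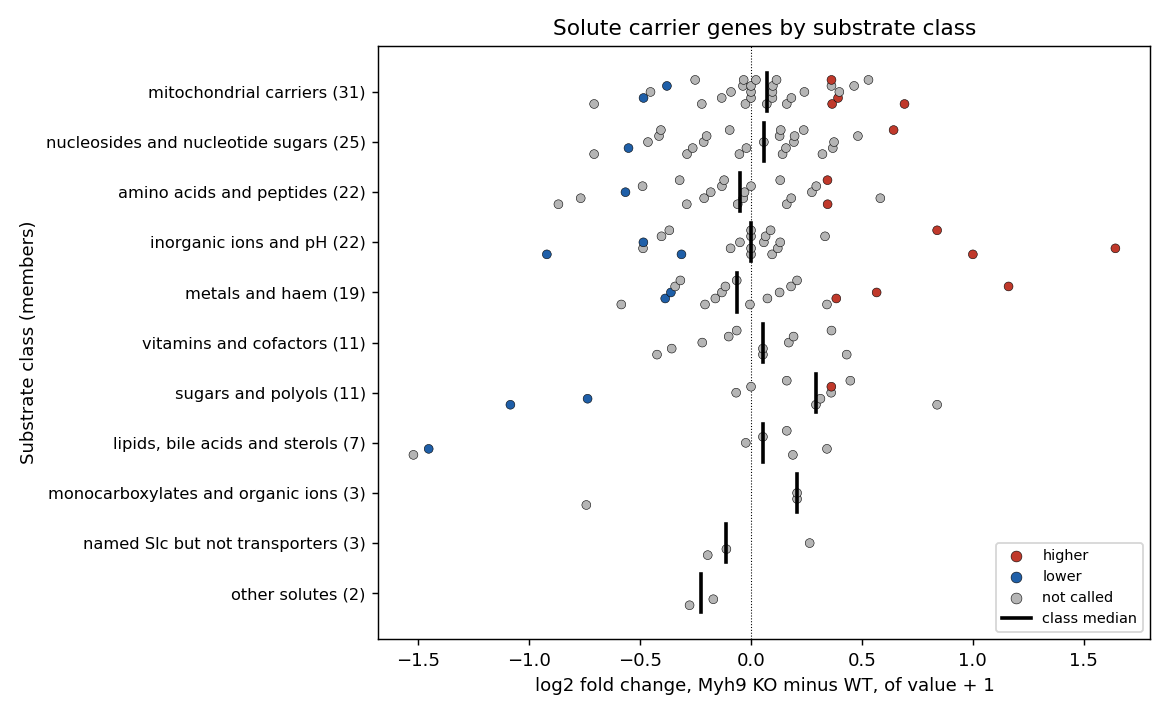
Log2 fold change (Myh9 KO minus WT, of value + 1, horizontal axis) of all 156 members in 11 substrate classes, with the number of members in brackets, red for higher, blue for lower, grey for not called, and a black bar at the class median. Rises and falls appear together in 6 of the classes, and the class medians lie between -0.22 and 0.29.

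Transporters of inorganic ions and of acid and base (22 genes) gave 3 rises and 3 falls. Each was 13.6% of the class, against 5.12% and 5.80% of all genes tested. The median log2 fold change was 0, and ran from -0.0536 to 0.0466 over the alternative settings. The magnesium transporters moved apart. Slc41a3 (chromosome 6, 90604725 to 90646412) had the largest rise of any member called, from 3 in each WT library to 12 and 11 (limma, adjusted p = 0.00549, for a log2 difference of 1.64 with an SE of 0.05), while Slc41a1 fell from 20 in each WT library to 14 in each Myh9 KO library (limma, adjusted p = 0.00785, or 0.0126 with random decimals, for a log2 difference of -0.49). With its WT mean set to 1, the ratio of Slc41a3 to Slc41a1 was 5.71 and 5.24 in Myh9 KO.

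The bicarbonate transporters also split. Slc4a5, an electrogenic sodium bicarbonate cotransporter (chromosome 6, 83219828 to 83304945), fell from 85 and 93 to 47 and 46 (limma, adjusted p = 0.018, for a log2 difference of -0.92 with an SE of 0.06). Slc4a11, a proton and ammonia transporter of the same family, rose from 8 and 9 to 15 and 17 (adjusted p = 0.0448, for a log2 difference of 0.84 with an SE of 0.10). Slc4a2, the anion exchanger AE2 (19 and 21, then 13 and 15), was lower with random decimals alone, and it overlaps Fastk on the opposite strand (88 and 83, then 66 and 75). Among sodium/proton exchangers, Slc9a5 went from 1 in each WT library to 3 in each Myh9 KO library and was called higher, at values where a single unit is a large step. Slc20a1, the phosphate transporter PiT-1, fell from 85 and 87 to 70 and 68 (adjusted p = 0.0258, for a log2 difference of -0.31 with an SE of 0.03), and its relative Slc20a2 had 53 and 62 and then 61 and 61. None of the 6 cation-chloride cotransporters of the Slc12 family was called by either limma fit, and 0 had an unadjusted p under 0.05. The groups overlapped in each of the 6, whereas they did not overlap in 53.5% of all genes tested.

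Transporters of metals and haem (19 genes) gave 3 rises and 2 falls (15.8% and 10.5%, against 5.12% and 5.80% of all genes tested). Their median log2 fold change was -0.06, and ran from -0.1155 to 0.0 over the alternative settings. Zinc importers of the Slc39 family raise cytosolic zinc and exporters of the Slc30 family lower it. Slc39a1, a plasma membrane zinc importer, fell from 97 and 95 to 75 and 74 (limma, adjusted p = 0.0128, for a log2 difference of -0.36 with an SE of 0.02). Slc30a2, which loads zinc into vesicles, rose from 23 and 25 to 35 and 37 (adjusted p = 0.0396, for a log2 difference of 0.57 with an SE of 0.06). These were the only calls by both fits among 10 Slc39 and 5 Slc30 members. Slc39a7, the importer of the secretory pathway with the highest mean value in the class, had 136 and 141 and then 139 and 137 (fold interval 0.935 to 1.06), and 74.5% of its 50-base words occur in an overlapping transcript model, Gm20427. For Slc39a1 the share is 21.8%, with a pseudogene copy.

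For copper, the high-affinity importer Slc31a1 fell from 16 in each WT library to 12 in each Myh9 KO library (limma, adjusted p = 0.0127, or 0.045 with random decimals, for a log2 difference of -0.39). This call was lost with median-centred libraries, no filter, no variance trend, the GC content trend removed or chromosomes 6 and 8 left out. Slc31a2, which modulates copper uptake, went from 5 and 5 to 3 and 3 and missed the threshold with random decimals (0.0737). For haem and iron, Slc48a1, which moves haem out of endolysosomes, rose from 17 and 17 to 22 and 23 (limma, adjusted p = 0.0266). The log2 difference was 0.38 with an SE of 0.03. That call was lost with the GC content trend removed and with no variance trend. Slc11a1, an iron and manganese transporter of phagosomes, rose from 1 and 1 to 3 and 4 (adjusted p = 0.0448, for a log2 difference of 1.16 with an SE of 0.14).

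Transporters of sugars and polyols (11 genes, without the glucose transporters Slc2a1 and Slc2a3) gave 1 rise and 2 falls. These were 9.09% and 18.2%, against 5.12% and 5.80% of all genes tested. Their median log2 fold change was 0.29, against 0 for all genes tested, and ran from 0.085 to 0.361 over the alternative settings. Both falls were of sodium-coupled transporters. Slc5a11, a myo-inositol transporter, fell from 8 and 7 to 3 and 3 (limma, adjusted p = 0.02, for a log2 difference of -1.08 with an SE of 0.08). Slc5a1, the glucose transporter SGLT1, fell from 4 in each WT library to 2 in each Myh9 KO library (adjusted p = 0.00182, and 0.0447 with random decimals), a call lost with no filter, with the GC content trend removed and without chromosomes 6 and 8.

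The rise in this class was of Slc37a3, of the sugar phosphate family, from 27 and 27 to 36 and 34 (limma, adjusted p = 0.0366, for a log2 difference of 0.36 with an SE of 0.04). Slc37a4, which carries glucose-6-phosphate into the endoplasmic reticulum (4 and 3, then 7 and 7), and Slc50a1, a sugar exporter (30 and 28, then 43 and 37), were higher with random decimals alone (adjusted p = 0.0175 and 0.0144). Of the 4 Slc37 members, 3 lay above WT with no overlap, against 26.2% of all genes tested, and Slc37a2 had 3 in every library. Slc45a4, the member of the class with the highest mean value, had 37 and 44 and then 37 and 40 (fold interval 0.718 to 1.27).

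Carriers of nucleosides and nucleotide sugars (25 genes) gave 1 rise and 1 fall. Each was 4.0% of the class, against 5.12% and 5.80% of all genes tested. The median log2 fold change was 0.06, and ran from -0.066 to 0.1043 over the alternative settings. Slc29a3, the nucleoside transporter of lysosomes, rose from 7 and 7 to 11 and 12 (limma, adjusted p = 0.0266, for a log2 difference of 0.64 with an SE of 0.05). Slc28a1, which concentrates pyrimidine nucleosides with sodium, fell from 21 in each WT library to 14 in each Myh9 KO library (limma, adjusted p = 0.00608, or 0.00843 with random decimals, for a log2 difference of -0.55). Only Slc29a3 of the equilibrative Slc29 family was called by both fits. Against 26.2% of all genes tested, all 4 members of the family lay above WT with no overlap. The most highly valued of them, the plasma membrane transporter Slc29a1, had 313 and 328 and then 357 and 358 (fold interval 1.04 to 1.2) and passed with random decimals alone (adjusted p = 0.0458). None of the 18 Slc35 members, most of which carry nucleotide sugars into the Golgi and endoplasmic reticulum, was called by both limma fits, although before adjustment 2 of them had p under 0.05 upwards and 3 downwards. Their log2 fold changes ran from -0.46 to 0.37, and Slc35g1 (21 and 22, then 17 and 15) was lower with random decimals alone.

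Among 7 transporters of lipids, bile acids and sterols, Slc27a2, which takes up and activates very long chain fatty acids (chromosome 2, 126552407 to 126588243), fell from 4 and 5 to 1 and 1 (limma, adjusted p = 0.0246, for a log2 difference of -1.45 with an SE of 0.12). It reached the minimum mean through its WT values, as did Slc43a3 (3 and 3, then 1 and 2), while Slc9a5, Slc11a1 and Slc35a5 (1 and 2, then 1 and 4) did so through Myh9 KO. Slc51a, a chain of the organic solute transporter, had 8 and 10 and then 2 and 3 and was lower with random decimals alone (adjusted p = 0.00233). It was the most negative log2 fold change of the set (-1.52, SE 0.22, adjusted p = 0.0589 in the first fit). Slc27a4, the fatty acid transporter with the highest mean value here, had 30 and 33 and then 29 and 33.

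Of 11 transporters of vitamins and cofactors, limma called 0 by both fits (before adjustment 2 had p under 0.05 upwards and 1 downwards), and with random decimals alone Slc52a2, a riboflavin transporter (11 and 10, then 14 and 15), was higher and Slc19a2, a thiamine transporter (23 and 25, then 18 and 19), lower. Slc5a6, which imports biotin and pantothenate, had 69 and 71 and then 63 and 71 (fold interval 0.793 to 1.15). The folate carrier Slc19a1 had 23 and 22 and then 23 and 29. The creatine transporter Slc6a8 had 106 and 108 and then 93 and 97, and the polyamine transporter Slc18b1 had 14 and 13 and then 12 and 10. Neither was called by either fit, nor were the 3 carriers of monocarboxylates and organic ions (Slc16a6, Slc16a13 and Slc22a5), whose values lay between 2 and 7. Of 3 members that carry an Slc name and are not transporters, Slc4a1ap, Slc9a3r2 and Slc7a6os, the last was higher with random decimals alone (68 and 75, then 88 and 84).

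Rises and falls were spread unevenly over the chromosomes. Of the 14 members that rose, 6 lie on chromosomes 6 and 8, which hold 21 of the 156 members. On chromosome 6, 3 of 8 members rose, Slc41a3, Slc25a26 and Slc37a3, against 30.5% of all genes tested there, and 1 fell, Slc4a5, against 2.52%. On chromosome 8, 3 of 13 rose, Slc7a5, Slc25a4 and Slc9a5, against 12.5%, and 0 fell, against 1.70%. On the other chromosomes 8 of 135 members rose (5.93%, against 3.24% of genes tested) and 11 fell (8.15%, against 6.24%), where 9.48% of genes tested were called in either direction. The median log2 fold change of the members was 0.38 on chromosome 6, 0.26 on chromosome 8 and -0.005 elsewhere, and that of all genes tested was 0.45, 0.21 and -0.02. The members had medians near those of their chromosomes, and the dosage of these chromosomes was not tested. On chromosome 8 the log2 fold change of 12 of 13 members was above 0. On chromosome 6, Slc4a5 was lower by 0.92 on the log2 scale. The rise of Slc41a3 (1.64) was above the chromosome's median by more than that median itself, whereas those of Slc37a3 (0.36) and Slc25a26 (0.69) were closer to it.

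**Figure D4:**
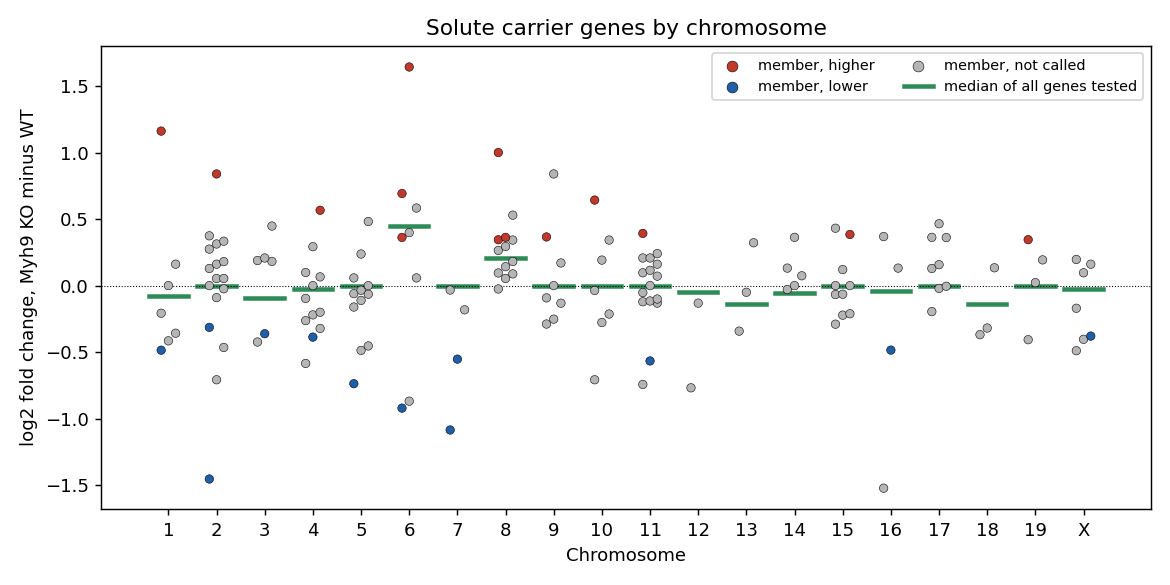
Log2 fold change (Myh9 KO minus WT, vertical axis) of the 156 members by chromosome, red for higher, blue for lower and grey for not called, with a green bar at the median of all genes tested on that chromosome. The green bar stands at 0.45 on chromosome 6 and 0.21 on chromosome 8, and 6 of the 14 red points lie on these chromosomes.

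Base composition also moved with the direction. Among the 36 members in the lowest tertile of GC content of the genes tested (31% to 47.7%), the median log2 fold change was -0.20, with 0 rises and 1 fall, that of Slc31a1. All genes tested in that tertile had a median of -0.12. Among the 60 members of the highest tertile (53.7% to 76.3%) the median was 0.12, with 8 rises and 4 falls, and all genes tested there had 0.09. Over all genes tested, the 2 Myh9 KO libraries differed in the same way. The median of Myh9 KO 2 minus Myh9 KO 1 was -0.10 in the lowest tertile and 0.07 in the highest. Over the members that median was 0.0 in the lowest tertile and 0.07 in the highest. With a GC content trend removed from each library, 23 of the 26 calls remained, and those of Slc31a1, Slc48a1 and Slc5a1 were lost.

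Transport genes outside the set were given by lists, to be read beside all genes tested, of which 5.12% rose and 5.80% fell. Of the 8 tested genes that were left out by name, Slc16a3, Slc2a3 and Slc2a1 rose and Slc30a1 fell. Among 23 tested solute carriers under other names, 2 rose and 5 fell. Both subunits of the mitochondrial pyruvate carrier fell, Mpc1 from 55 and 54 to 40 and 41 (limma, adjusted p = 0.0139, for a log2 difference of -0.42 with an SE of 0.02) and Mpc2 from 29 and 28 to 19 and 17 (adjusted p = 0.0408, for a log2 difference of -0.64 with an SE of 0.07). Mfsd1, a lysosomal transporter, fell from 32 and 36 to 18 and 17, and Tmem165 from 61 and 64 to 47 and 45. Among the tested subunits and regulators of the sodium pump, whose gradient drives many of the members, Atp1b2 (10 and 11, then 45 and 46) rose and Fxyd6 (62 and 69, then 29 and 29) and Atp1b3 (68 and 72, then 56 and 57) fell. Of 17 V-ATPase genes Atp6v1f and Atp6v0d1 rose, on chromosomes 6 and 8, and of 17 ABC transporters Abcb6 rose (19 and 19, then 32 and 31). Neither Bsg nor Emb, the chaperones of monocarboxylate transporters, was called.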

How the data were processed

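RNA-seq was compared between 2 WT and 2 Myh9 KO libraries. The authors deposited a whole-number score for each gene and library. The 4 columns sum to nearly the same total, as normalized values with dropped decimals would, so they were not treated as counts, the depth is unknown, and scaling by length is not stated. Levels of different genes are therefore not compared beyond their deposited values. Bowtie2 2.2.5, RSEM 1.3.0 and bcl2fastq, and the builds mm10 and hg38, come from the submitters' processing notes, which assign them no step. Of 50600 identifiers, 50376 matched GENCODE M21 (mm10), and 92.91% of these had the same coordinates (135 of the 156 members).

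limma-trend (limma 3.58.1, R 4.3.3) was fitted on log2(value + 1) for the 11231 genes with a mean of at least 1, with no block, and again with uniform random decimals between 0 and 1 added to each value (median adjusted p over 25 draws). Calls needed both fits. Where replicates were equal, as in both groups of 6 of the 26 called members, the first fit's SE is too small. Members, lists and classes were chosen with earlier results of these data known. Named genes were the 10 largest rises and falls among called members, and up to 3 called members per class and direction by p. The member of each class with the highest mean value was named too, as were up to 4 called genes of each other list by p. Other members were also named to account for a class, among them some that passed with random decimals alone. Reads from opposite strands cannot be told apart, since the labels' protocols name no strand step. Values of a few single genes are not reported here.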

Additional observations from a re-analysis of the deposited data

How the results depend on the processing

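Of the 26 calls, 26 remained with a pseudocount of 0.5 or 2, 25 with median-centred libraries, 23 with no filter, 22 with a minimum mean of 5 (the other 4 were not in that fit) and 15 with no variance trend, and no called member reversed under any of these or with a library left out. Counts are given as higher and lower. In this section, counts with random decimals alone are of all genes that passed the second fit, whether or not they passed the first. For the members they were 14 and 12, with 7 higher without a variance trend and 7 higher without chromosomes 6 and 8, 19 lower with the GC content trend removed, 22 and 20 with random decimals alone, and 3 to 6 and 4 to 4 with a library left out. For all genes they were 575 and 651, with 1125 and 813 for median-centred libraries, 1212 and 1193 with the GC content trend removed, 300 higher without chromosomes 6 and 8, 1239 and 1339 with random decimals alone, and 132 to 337 and 193 to 405 with a library left out. For the related transport genes outside the set they were 10 and 8, with 6 and 4 without a variance trend, 15 lower with random decimals alone, and 5 to 6 and 0 to 1 with a library left out. The median log2 fold change of the members was 0.0466 with median-centred libraries and 0.0535 with a minimum mean of 5. Myh9 had a log2 fold change of -3.20 with the block and without either Myh9 KO library, where it was not called, and from -3.3363 to -3.0704 over the 4 settings that leave a library out. Leaving out a library leaves a group with a lone sample that is assumed to vary like the others. The cause of these shifts was not tested, beyond the smaller number of libraries or genes. Equal replicates gave the first fit few prior degrees of freedom (0.602), and it alone called 9 members that the second did not, 8 of them with equal replicates in both groups.

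Same-numbered libraries did not deviate together (correlation 0.04 over the genes tested), so the numbers do not pair them. With the replicate block, 10 genes were higher and 44 lower, with 0 and 0 of the members, and 0 and 0 of the related genes, by both limma fits. Before adjustment, 31 members had p under 0.05 upwards and 30 downwards with the block, and 20 and 17 passed with random decimals alone.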

Other observations

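Of the 50 solute carrier rows above 0 with a mean under 2, 20 were tested and 1 was called by both fits. This was Slc2a4, the insulin-responsive glucose transporter GLUT4, listed at 0 in WT 1 and WT 2 and at 2 in each KO library. It reached the mean of 1 needed for testing only through its KO values, and its replicates were equal in both groups. Slc26a10 (1 and 1, then 2 and 2) and Slc17a5, the lysosomal sialic acid exporter (2 and 2, then 1 and 1), were called by the first fit alone, where equal replicates leave no spread. Just under the minimum, Slc9b1, Slc25a46, Slc22a23 and Slc35e4 each had a mean of 1.75, and just inside it Slc1a3, Slc9a5, Slc26a11 and Slc35a5 had a mean of 2.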
